A study of Mus musculus with 36 samples.

Results

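The vehicle control of a stress experiment was examined here as a treatment of its own: 9 libraries of mouse embryonic fibroblasts given dimethyl sulfoxide (DMSO) against 9 libraries of the same cells left untreated (NT). They are 18 of the 36 libraries of the series, chosen by their labels. The cells were 3 lines grown in RPMI 1640 with fetal bovine serum: wild type (WT), a line deleted for the kinase GCN2 and a line deleted for the kinase PERK, with 3 DMSO and 3 NT libraries each. The other 18 libraries came from the same lines after 6 h of thapsigargin at 200 nM or of starvation for lysine and arginine (AAS). The labels name 1 line per genotype and call the 3 libraries of a group technical replicates, so every p-value measures the spread between such replicates only, and genotype and line cannot be told apart. Neither the dose of DMSO nor the time of exposure is given in the labels, and a medium change, plate or day that went with DMSO cannot be told apart from it.

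DMSO is an aprotic solvent that carries hydrophobic compounds such as thapsigargin into medium, and it also acts on cells: it scavenges hydroxyl radicals, is reduced and oxidised by cellular enzymes, and can act as a chemical chaperone for proteins. The study was built around a pair of stress pathways. PERK, IRE1 and ATF6 are the sensors of the unfolded protein response (UPR) in the endoplasmic reticulum (ER), where IRE1 splices Xbp1 mRNA and the spliced product turns on ER folding and degradation genes. GCN2 senses uncharged tRNA, and GCN2 and PERK both phosphorylate eIF2alpha, which favours translation of the transcription factor ATF4. NRF2, the factor of the antioxidant response, is released from its inhibitor KEAP1 by oxidants and electrophiles.

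Values are TPM, a transcript abundance normalised for length and scaled to the same total, 1000000, in every library. Changes are DMSO minus NT on the log2(TPM + 1) scale. A gene rose or fell when its adjusted p from limma was under 0.05 in a model of all 18 libraries with line as a block. Fibroblast markers summed to 3364 to 7148 TPM in the DMSO libraries and 3246 to 7297 in the NT libraries, with Lum alone under 1 TPM in all 18. Markers of blood cells summed to at most 23.4 TPM, with Ptprc under 1 and Adgre1 and Tyrobp at 0 in all 18, and markers of epithelium to at most 13.6 TPM, with Epcam under 1. Other lists were higher. Pericyte and smooth muscle markers summed to 158.5 to 1576 TPM with DMSO and 122.9 to 1660 in NT libraries. Cartilage and bone markers summed to 155 to 403 and 179 to 511 TPM. None of the marker genes tested, from 8 cell types, rose or fell (limma; no skeletal muscle marker passed the filter on low values), although with median-of-ratios rescaling 1 of them, Col1a2, fell; in bulk RNA fewer cells of a type and less RNA per cell cannot be told apart. Correlations between replicates ran from 0.961 to 0.985. WT NT replicate 1 and the DMSO replicate 1 of the GCN2-deletion line stood apart from the rest on the third principal component (7.17% of the variance), and both were among 4 libraries with over 2% of their TPM in microRNA genes. The shares of microRNA, mitochondrial, ribosomal protein, other small RNA and protein-coding transcripts showed no detectable difference between DMSO and NT (exact permutation within lines, two-sided p from 0.275 to 0.936, 0.936 after adjustment over 5 shares).

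The shared response to DMSO was small. Of 15300 genes tested, 41 rose (0.268%) and 82 fell (0.536%), 123 in all (0.804%), of which 118 were protein coding. None changed 2-fold on the log2(TPM + 1) scale, which understates the changes of low genes. On it the changes ran from -0.63 for the antisense gene Gm37065 to 0.67 for Hist1h1c, with a median size of 0.26. In TPM, Gm37065 averaged 0.787 with DMSO and 1.77 untreated, and Gm30873 0.601 and 1.39. At an unadjusted p under 0.05 there were 841 genes up and 975 down. Of all 15300, 7592 lay above 0 and 7708 below. These shares, with the 0.268% and 0.536% called, are the background for the counts of list members further on. All 123 had the same sign in all 3 lines, as did 15.3% of all genes tested above 0 and 15.4% below 0, but a call on the shared effect favours such genes, so this is a description and no support. The same holds for overlap. Of those that rose, 30 had every DMSO library above every NT library within each of the 3 lines, as did 46 of all genes tested (0.301%), and of those that fell, 37 had every DMSO library below, as did 47 of all genes tested (0.307%). With quantile normalization the split turned over, 184 genes rising and 137 falling, so that 57.3% of the calls were rises against 33.3% without it. With all 36 libraries in the fit 158 rose and 198 fell (44.4% rises). Without the pair of libraries that stood apart 59 rose and 124 fell, 104 of the 123 among them. Leaving out 1 library at a time gave 20 to 53 rises and 33 to 127 falls, with 52 to 112 of the 123 called again. Leaving out a whole line left 5, 1 or 16 of them (without WT, GCN2 deletion or PERK deletion), and Hist1h1c alone among the genes named here passed in all 3 of those fits.

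The largest change was in Hist1h1c (chr13:23738808-23740367, GRCm38), which encodes a linker histone H1 that binds the nucleosome where DNA enters and leaves. In WT cells it stood at 8.44, 8.05 and 8.55 TPM with DMSO and 4.81, 4.27 and 5.83 untreated. Without GCN2 the values were 14.6, 14.8 and 15.9 against 9.95, 9.21 and 9.81, and without PERK 16.3, 18.8 and 15.6 against 9.44, 8.44 and 10.8. The DMSO libraries were above all NT libraries in each line, with no overlap. Hist1h1c rose by 0.67 (SE 0.058, adjusted p = 3.7e-05), 1.59-fold on the TPM + 1 scale. The core histone gene Hist1h2bc rose by 0.34 (adjusted p = 0.013), from 2.66 to 3.80 TPM untreated to 4.12 to 4.75 with DMSO in WT cells. Of 33 replication-dependent histone genes tested these 2 rose and 0 fell, and the median of the list was 0.05. Histone genes have near-identical copies among which the authors' counting could divide reads, so a change of 1 member is uncertain. H3f3b, which encodes the replacement histone H3.3 and is not in that list, rose by 0.21 (adjusted p = 0.00333), from 575 to 649 TPM in the 9 NT libraries to 604 to 770 TPM with DMSO. H3f3b, like H19, Crabp2, Jun, Plau, Hsp90b1, Manf, Srxn1, Gclm, Pdia6, Mt1 and Hspa1b further on, was picked out after its values were seen, and its call ended under median-of-ratios rescaling.

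**Figure D1:**
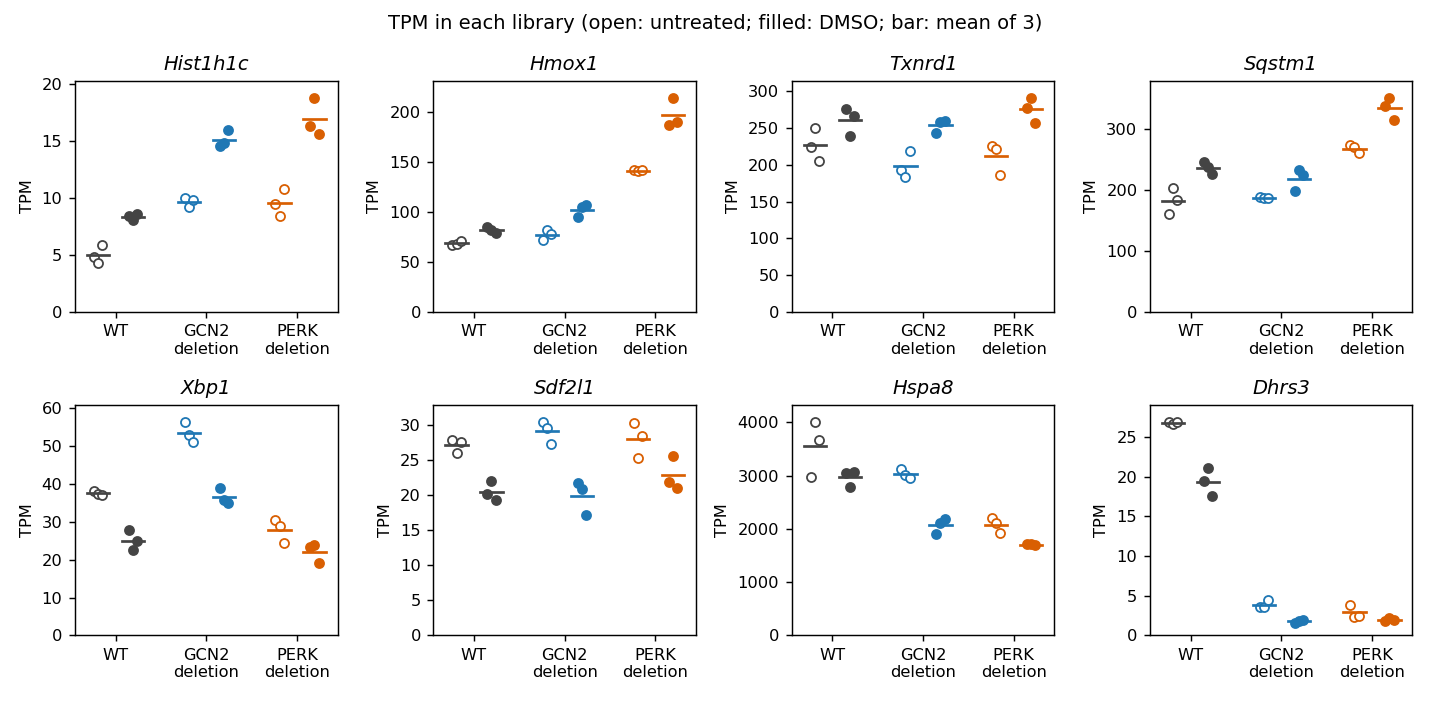
TPM of 8 genes in each of the 18 libraries, by line (x axis), with open circles for untreated and filled circles for DMSO libraries and a bar at the mean of 3; each y axis starts at 0. Hist1h1c, Hmox1, Txnrd1 and Sqstm1 sit higher with DMSO, and Xbp1, Sdf2l1, Hspa8 and Dhrs3 lower, with Hist1h1c, Hmox1, Sqstm1, Xbp1 and Dhrs3 free of overlap in all 3 lines.

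Of 21 NRF2 antioxidant genes 3 rose (14.3%, beside 0.268% of all genes tested). Hmox1 (chr8:75093621-75100589) encodes heme oxygenase 1, which breaks down heme and is a classic NRF2 target. In WT cells it stood at 85.2, 81.8 and 78.6 TPM with DMSO and 66.8, 67.9 and 70.8 untreated. The GCN2-deletion line gave 94.6, 105 and 107 TPM against 71.5, 81.7 and 77.7, and the PERK-deletion line 186, 214 and 190 against 142, 140 and 142. No DMSO library overlapped an NT library of its line, and the PERK-deletion line was the highest in both conditions. Hmox1 rose by 0.38 (SE 0.042, adjusted p = 0.00071), and by 0.25, 0.40 and 0.47 in the WT, GCN2-deletion and PERK-deletion lines, effects whose difference was not detected (F-test adjusted p = 0.93).

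Txnrd1 (chr10:82833951-82897712), the cytosolic thioredoxin reductase, stood in WT cells at 276, 239 and 266 TPM with DMSO against 224, 251 and 205 untreated. The line without GCN2 gave 243, 259 and 260 TPM against 193, 184 and 219, and that without PERK 278, 291 and 258 against 226, 222 and 186. The groups overlapped in WT cells, where 1 NT library lay above 1 DMSO library, and were apart in both deletion lines. Txnrd1 rose by 0.31 (SE 0.054, adjusted p = 0.0114), and its relative Txnrd3, a thioredoxin-glutathione reductase, by 0.33 (SE 0.046, adjusted p = 0.00333) with effects of 0.34, 0.31 and 0.34 in the 3 lines. Nqo1, the quinone reductase, rose by 0.20 (adjusted p = 0.0375), but its call was kept in 4 of 18 fits that left out 1 library (adjusted p up to 0.0853) and ended under median-of-ratios rescaling and quantile normalization.

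The NRF2 genes that rose were Hmox1, Txnrd1 and Nqo1, 0 fell and 19 of the 21 lay above 0, beside 7592 of all 15300 genes tested. The median of the list was 0.11, beside -0.0009 for all genes tested. At an unadjusted p under 0.05 there were 11 NRF2 genes up and 0 down. Members that missed the threshold were Srxn1, which restores oxidised peroxiredoxins, at 0.20 (adjusted p = 0.0768) and Gclm, the modifier subunit of the enzyme that starts glutathione synthesis, at 0.17 (adjusted p = 0.128). Under quantile normalization the members past the threshold numbered 4, with Gclc and Gsr in and Nqo1 out, and leaving out the GCN2-deletion line left 0. Sqstm1 (chr11:50199366-50210827), the autophagy receptor p62 and a competitor for KEAP1, was listed with the lysosome and autophagy genes. It stood at 247, 239 and 226 TPM with DMSO in WT cells against 160, 203 and 184 untreated. The values were 198, 233 and 224 against 188, 187 and 186 without GCN2, and 339, 351 and 315 against 274, 270 and 261 without PERK. The groups did not overlap in any line, and Sqstm1 rose by 0.31 (SE 0.045, adjusted p = 0.00333). It was the only one of 32 lysosome and autophagy genes to pass, none fell, and 25 lay above 0, with Wipi1 passing too under median-of-ratios rescaling, under quantile normalization and without the pair of libraries that stood apart.

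The antioxidant response element to which NRF2 binds was searched as its core TGACNNNGC on both strands of RefSeq promoter windows (GRCm38.p6, 250 bases before to 50 after the start). It was in 7 of 17 NRF2 list genes with a window, beside 12.4% of all 32851 windows and 16.9% of the genes tested with a window. A gene was counted when any of its windows held a match. Of the genes that rose with a window it was in 7 of 33 (21.2%), and of those that fell in 8 of 60 (13.3%). A match of so short a core is a description of the letters and not a site of binding. The Txnrd1 copy is shown because it is the list member that both rose and holds the core, 92 bases before the start at chr10:82859102-82859134 on the plus strand, with the core in capitals as it reads on the opposite strand:
Txnrd1: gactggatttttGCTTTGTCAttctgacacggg

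Of the metallothionein and zinc genes 1 of 7 rose (14.3%), and of the immediate early genes 4 of 31 (12.9%), beside 0.268% of all genes tested. Mt2, one of the metallothioneins that bind zinc and copper, stood at 305 to 366 TPM with DMSO and 248 to 281 untreated in WT cells, at 159 to 167 against 108 to 140 without GCN2, and at 226 to 236 against 204 to 219 without PERK. It rose by 0.28 (adjusted p = 0.0337), with no overlap in any line, but the call was kept in 8 of 18 fits without 1 library (adjusted p up to 0.0784), and ended under median-of-ratios rescaling and without the pair of libraries that stood apart. Mt1, its neighbour on chromosome 8, was at 0.15 (adjusted p = 0.237). Mt2 was the only one of 7 metallothionein and zinc genes to pass.

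Of 31 immediate early genes, which respond within minutes to serum or stress, 4 rose, 0 fell and 24 lay above 0, with a median of 0.12, and 14 were up and 1 down at an unadjusted p under 0.05. Cyr61 (chr3:145646971-145649985), a secreted matricellular protein, stood in WT cells at 390, 411 and 396 TPM with DMSO against 306, 335 and 327 untreated. It was higher in the line without GCN2, at 1062, 1002 and 983 TPM against 830, 890 and 860, and in between in that without PERK, at 626, 693 and 600 against 583, 552 and 510. All DMSO libraries were above the NT libraries of their line. Cyr61 rose by 0.26 (SE 0.036, adjusted p = 0.00333). Ctgf, its relative and like it a target of the YAP coactivator, rose by 0.20 (adjusted p = 0.0241), the transcription factor Jun by 0.19 (adjusted p = 0.0209) and Klf2 by 0.26 (adjusted p = 0.0337). The calls of Ctgf, Jun and Klf2 were kept in 14, 17 and 4 of 18 fits without 1 library, and that of Ctgf ended under median-of-ratios rescaling. Without the WT line or without the GCN2-deletion line 0 immediate early genes passed, and without the PERK-deletion line Cyr61 alone did. Under quantile normalization 7 rose, with Egr1, Fosl1 and Spry4 the others. Among 17 YAP targets only Cyr61 and Ctgf passed, and the median was 0.03.

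**Figure D2:**
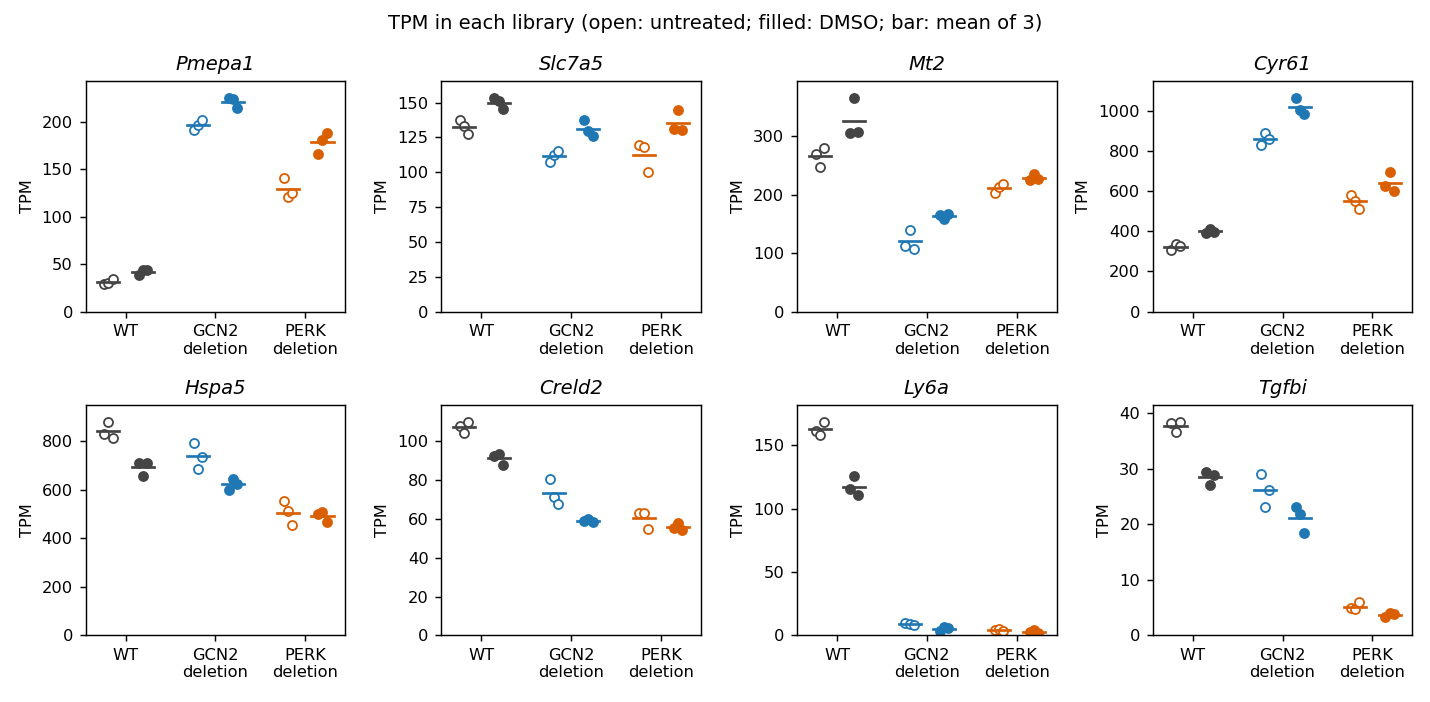
TPM of 8 further genes in each of the 18 libraries, drawn as before with open circles for untreated, filled circles for DMSO and a bar at the mean of 3. Pmepa1, Slc7a5, Mt2 and Cyr61 lie higher with DMSO in every line and Tgfbi lower, while Hspa5, Creld2 and Ly6a overlap in the PERK-deletion line.

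Xbp1 and 2 of 26 ER chaperones and folding enzymes (7.69%, beside 0.536% of all genes tested) fell. Xbp1 (chr11:5520659-5525893), the transcription factor of the IRE1 branch, stood in WT cells at 27.8, 22.4 and 24.9 TPM with DMSO against 38.3, 37.3 and 37.0 untreated. The line without GCN2 gave 38.9, 35.7 and 35.1 TPM against 56.4, 52.9 and 51.0, and that without PERK 23.5, 23.8 and 19.01 against 30.5, 28.8 and 24.4. Every DMSO library lay below every NT library of its line, narrowly so in the PERK-deletion line. Xbp1 fell by 0.48 (SE 0.060, adjusted p = 0.002), with effects of -0.57, -0.54 and -0.32. TPM per gene does not separate spliced from unspliced Xbp1 mRNA.

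Sdf2l1 (chr16:17130138-17132383), which works with the chaperone BiP and its cochaperones in the ER lumen, stood in WT cells at 20.2, 21.9 and 19.4 TPM with DMSO against 27.9, 26.0 and 27.6 untreated. Without GCN2 it was at 21.7, 20.9 and 17.2 TPM against 30.4, 29.5 and 27.3, and without PERK at 21.9, 25.6 and 20.99 against 30.3, 25.3 and 28.4. The groups were apart except in the PERK-deletion line, where 1 DMSO library lay just above the lowest NT library. Sdf2l1 fell by 0.40 (SE 0.058, adjusted p = 0.00333), and Creld2, an ER disulfide isomerase, by 0.21 (SE 0.041, adjusted p = 0.0244). The Creld2 call was kept in 13 of 18 fits without 1 library (adjusted p up to 0.0615). These 2 were the only ones of 26 ER chaperones and folding enzymes to pass, and 0 rose, while 20 lay below 0 with a median of -0.07. The medians were -0.07, -0.12 and -0.01 in the WT, GCN2-deletion and PERK-deletion lines, beside -0.06, 0.03 and 0.03 for all genes tested. Without the WT line or without the GCN2-deletion line 0 members passed. At an unadjusted p under 0.05 there were 10 down and 1 up, and with median-of-ratios rescaling 5 fell, Hspa5, Hsp90b1 and Fkbp14 being the others. When protein-coding genes alone were tested 4 fell, with Hspa5 and Pdia6 the others.

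Hspa5, which encodes BiP itself, was at -0.19 (SE 0.048, adjusted p = 0.0869). It stood in WT cells at 711, 656 and 709 TPM with DMSO against 830, 880 and 815, without GCN2 at 599, 643 and 624 against 791, 687 and 737, and without PERK at 501, 508 and 469 against 552, 511 and 453. Its groups were apart in the first 2 of these lines and overlapped fully in the PERK-deletion line. Hsp90b1, the ER form of HSP90, was at -0.16 (adjusted p = 0.215), Pdia6 at -0.11 (adjusted p = 0.0947) and Manf at -0.14 (adjusted p = 0.0889). In 20 N-glycosylation genes 2 fell: Alg12, an ER mannosyltransferase that builds the sugar chain, by 0.27 (SE 0.053, adjusted p = 0.0241) and Gmppb, which makes GDP-mannose, by 0.26 (SE 0.053, adjusted p = 0.0337). Their calls were kept in 12 and 7 of 18 fits without 1 library. Xbp1 was the only one of 14 UPR sensors and factors to pass. Of 20 genes of ER-associated degradation 0 rose and 0 fell in limma (4 up and 1 down at an unadjusted p under 0.05), and with median-of-ratios rescaling or quantile normalization 1 rose.

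The ER stress response element, the sequence through which ATF6 and XBP1 act together with NF-Y, was searched on both strands as CCAAT and CCACG with 9 bases of any kind between them. It was in 39 of 32851 promoter windows (0.119%). By gene, it was in 17 of 10020 genes tested with a window (0.17%), and in 8 of 22 ER chaperone and folding genes with a window (36.4%). Those 8 were Calr, Canx, Creld2, Dnajc3, Ero1lb, Hsp90b1, Hspa5 and Pdia6, and their shared changes ran from -0.21 for Creld2, the only one past the threshold, to -0.03 for Canx, with all 8 below 0. Of all 26 genes tested in that list 20 lay below 0, beside 7708 of all 15300 genes tested. Whether the element went with the fall was not tested. Among genes with a window that fell it was in 2 of 60 (3.33%), Creld2 and Alg12, and among those that rose in 0 of 33. Creld2 and Alg12 are divergent neighbours on chromosome 15 and hold the same copy, 126 bases before the Creld2 start and 220 bases before the Alg12 start. Sdf2l1 and Xbp1 held no match to these letters in their windows. The copies of the pair that fell and of Hspa5 and Pdia6 are shown with the element in capitals, each on its gene's own strand: Hspa5 at chr2:34772013-34772055 (plus), Pdia6 at chr12:17266479-17266521 (plus), Creld2 at chr15:88819508-88819550 (plus, where the element reads on the opposite strand) and Alg12 at the same bases on the minus strand.
Hspa5: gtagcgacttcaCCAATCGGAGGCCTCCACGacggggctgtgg
Pdia6: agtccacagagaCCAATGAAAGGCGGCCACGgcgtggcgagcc
Creld2: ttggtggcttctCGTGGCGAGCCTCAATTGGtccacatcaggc
Alg12: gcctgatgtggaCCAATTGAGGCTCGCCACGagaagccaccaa

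The levels in the other libraries give the scale of these changes. With thapsigargin, Xbp1 stood at 156 ± 2.98 TPM (mean ± SD, n = 3) in WT cells, 196 ± 12.96 without GCN2 and 112 ± 4.49 without PERK. Sdf2l1 stood, in that order, at 187 ± 4.40, 147 ± 4.29 and 201.2 ± 11.2 TPM. In starved cells, for which the labels name no DMSO, Sdf2l1 stood at 15.4 ± 0.874, 15.9 ± 0.864 and 19.9 ± 0.557 TPM, levels below those of both the NT and the DMSO libraries. Xbp1 with starvation was at 45.7 ± 1.35 TPM in WT cells, above NT, and at 30.3 ± 0.802 and 21.6 ± 1.13 in the deletion lines, below NT. Comparisons of DMSO with NT share their libraries with the stress comparisons, so these levels are given side by side without a test.

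Cytosolic heat-shock genes fell in 2 of 26 cases (7.69%, beside 0.536% of all genes tested) and rose in 0. Hspa8 (chr9:40800984-40810087), the constitutive cytosolic HSP70, was abundant, at 3054, 2795 and 3062 TPM with DMSO in WT cells against 2972, 4013 and 3671 untreated. The GCN2-deletion line gave 1901, 2121 and 2190 TPM against 3133, 3007 and 2953, and the PERK-deletion line 1711, 1712 and 1698 against 2212, 2120 and 1917. In WT cells the lowest NT library, the replicate 1 that stood apart, lay among the DMSO libraries, and in both deletion lines the groups did not overlap. Hspa8 fell by 0.36 (SE 0.060, adjusted p = 0.00933). It has many pseudogenes with like sequence, which makes its level uncertain. Hsph1, the HSP110 exchange factor of HSP70, fell by 0.34 (adjusted p = 0.0357), but the call was kept in 4 of 18 fits without 1 library and ended without the pair of libraries that stood apart. The inducible Hspa1b was at -0.26 (adjusted p = 0.148), and the median of the list was -0.03. The heat-shock element was searched on both strands as GAA, TTC and GAA with 2 bases of any kind between units. It was in 4 of 21 list genes with a window (Chordc1, Hspd1, Hspe1 and Hsph1), beside 0.603% of all windows and 0.529% of genes tested with a window.

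ATF4 is the common output of GCN2 and PERK, and no member of its stress gene list passed the threshold in the main fit. Of 23 ATF4 and CHOP stress genes 0 rose and 0 fell in limma (3 up and 1 down at an unadjusted p under 0.05), with a median of 0.03, and 1, Asns, rose when protein-coding genes alone were tested and without the pair of libraries that stood apart. Asns, the asparagine synthetase, was at 0.13 (SE 0.031, adjusted p = 0.0593) with no overlap in any line: 161 to 168 TPM with DMSO against 136 to 154 in WT cells, 87.9 to 90.8 against 86.0 to 87.1 without GCN2, and 137 to 147 against 123 to 130 without PERK. Atf4 was at 0.08 (adjusted p = 0.351), Ddit3 at -0.02 (0.926), Trib3 at 0.11 (0.581), Chac1 at 0.03 (0.83), Sesn2 at 0.15 (0.214), Psat1 at 0.05 (0.654), Ppp1r15a at 0.03 (0.945) and Atf3 at -0.03 (0.952), adjusted p in brackets. Dnajb9, named as part of the fixed panel of stress genes and not as an ATF4 target, was at -0.17 (0.36). Of the mRNAs of the eIF2alpha kinases, Eif2ak1 was at 0.01 (0.947), Eif2ak2 at 0.23 (0.41), Eif2ak3 at 0.04 (0.882) and Eif2ak4 at -0.003 (0.996).

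Slc7a5 (chr8:121881150-121907694), the light chain of the leucine transporter LAT1 and an ATF4 target, was the only one of 15 amino acid transporters to pass. It stood at 153, 151 and 145 TPM with DMSO in WT cells against 137, 133 and 128 untreated. The values were 137, 130 and 126 TPM against 107, 112 and 115 without GCN2, and 131, 145 and 131 against 119, 118 and 101 without PERK. The DMSO libraries were the higher ones in every line without overlap, and Slc7a5 rose by 0.22 (SE 0.037, adjusted p = 0.00933). Slc6a9 passed too under median-of-ratios rescaling and under quantile normalization.

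**Figure D3:**
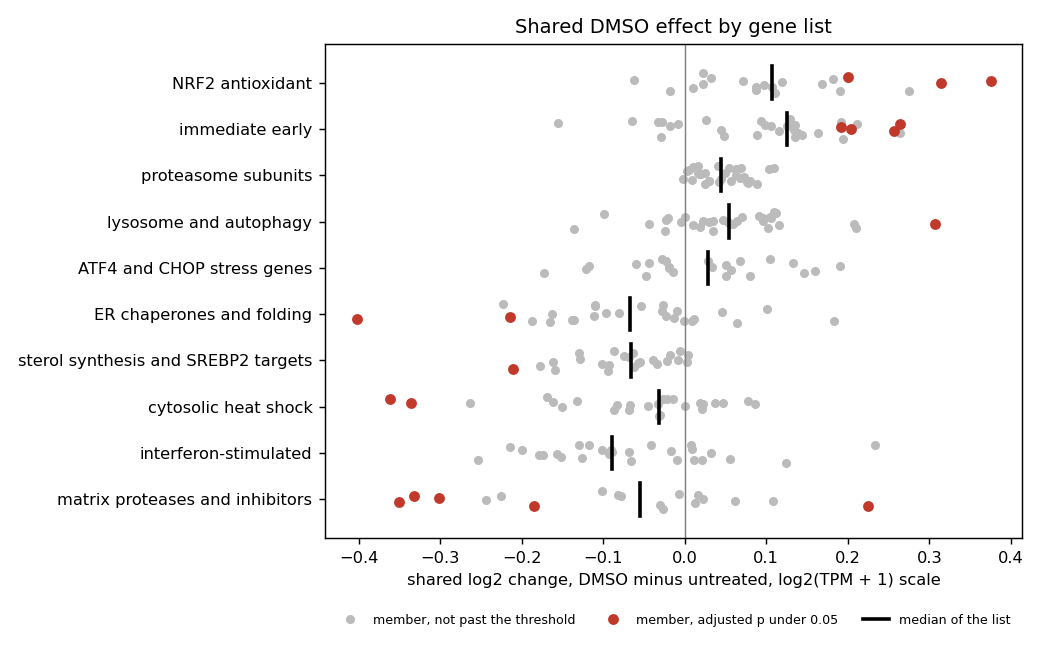
Shared log2 change, DMSO minus NT, of each member of 10 gene lists (x axis; 1 row per list), with red points for members past the threshold, grey points for the others and a black bar at the median. The NRF2 and immediate early medians lie at 0.11 and 0.12, the ER chaperone and sterol medians at -0.07, and most members of every list lie within 0.4 of 0.

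Ly6a (chr15:74994877-74998031), the surface antigen Sca-1, stood in WT cells at 115, 126 and 111 TPM with DMSO against 161, 158 and 169 untreated. It was far lower in the deletion lines, at 3.70, 6.39 and 5.79 TPM against 9.64, 9.01 and 8.56 without GCN2 and at 2.32, 4.14 and 2.27 against 4.33, 5.03 and 3.85 without PERK. Groups overlapped only in the PERK-deletion line, by 1 library. Ly6a fell by 0.56 (SE 0.097, adjusted p = 0.0119).

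Dhrs3 (chr4:144892827-144928209) reduces retinaldehyde to retinol and is itself induced by retinoic acid. It stood at 19.4, 21.1 and 17.5 TPM with DMSO in WT cells against 26.9, 26.6 and 26.9 untreated, at 1.55, 1.80 and 2.00 against 3.62, 3.53 and 4.51 without GCN2, and at 1.76, 2.24 and 1.93 against 3.81, 2.37 and 2.49 without PERK. The groups did not overlap in any line, and Dhrs3 fell by 0.54 (SE 0.084, adjusted p = 0.00538). Crabp2, the retinoic acid binding protein that hands its ligand to the nuclear receptor, fell by 0.33 (adjusted p = 0.0399), with the call kept in 4 of 18 fits without 1 library. The imprinted noncoding RNA H19 fell by 0.39 (SE 0.058, adjusted p = 0.00392). It had 34.6 to 41.6 TPM with DMSO against 50.5 to 55.8 untreated in the GCN2-deletion line and at most 1.58 TPM in the other lines.

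Tgfbi, a matrix protein induced by TGF-beta, had 27.1 to 29.4 TPM with DMSO in WT cells against 36.6 to 38.4 untreated, and fell by 0.36 (SE 0.057, adjusted p = 0.00598). Pmepa1, a membrane protein that damps TGF-beta signalling and is induced by it, had 38.6 to 44.3 TPM there against 29.3 to 34.4, and rose by 0.35 (SE 0.052, adjusted p = 0.00333). Neither overlapped between DMSO and NT in any line. Of 21 TGF-beta and BMP genes listed 0 rose and 0 fell in limma (2 up and 3 down at an unadjusted p under 0.05). Of 18 matrix proteases and inhibitors 4 fell (22.2%, beside 0.536% of all genes tested) and 1 rose (5.56%, beside 0.268%). The protease genes Adamts2, Adamts1 and Adamts5 fell by 0.35, 0.33 and 0.30 (adjusted p = 0.0433, 0.0339 and 0.0384), and the urokinase gene Plau by 0.19 (adjusted p = 0.024), whereas Plaur, the receptor of urokinase, rose by 0.22 (SE 0.033, adjusted p = 0.00333). The calls of the 3 Adamts genes were kept in 4, 8 and 5 of 18 fits without 1 library and that of Plau in 14, while that of Plaur was kept in all 18. Leaving out any whole line left 0 falls in this list, and Plaur passed only in the fit without the PERK-deletion line. Adamts2 was near the floor in the PERK-deletion line, at a mean of 0.188 TPM with DMSO and 0.388 untreated. Of 29 collagens and matrix genes 0 passed (0 up and 6 down at an unadjusted p under 0.05), and with median-of-ratios rescaling 1, Col1a2, fell.

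In lipid metabolism single genes moved. Acsl1, which activates long-chain fatty acids to their CoA esters, rose by 0.31 (adjusted p = 0.0337), and Cpt1a, which passes them into mitochondria, rose by 0.25 (adjusted p = 0.0297), with calls kept in 7 and 9 of 18 fits without 1 library. Angptl4, a secreted inhibitor of lipoprotein lipase, fell by 0.29 (SE 0.054, adjusted p = 0.0209), with no overlap in any line. Pmvk, the phosphomevalonate kinase of cholesterol synthesis, fell by 0.21 (SE 0.039, adjusted p = 0.0209), a call that ended under median-of-ratios rescaling and quantile normalization. It was the only one of 24 sterol genes to pass, and 22 of the 24 lay below 0 with a median of -0.07 (6 down and 0 up at an unadjusted p under 0.05). Fdps fell under quantile normalization, with protein-coding genes alone and without the pair of libraries that stood apart. The medians of that list in the WT, GCN2-deletion and PERK-deletion lines were -0.02, -0.02 and -0.16, beside -0.06, 0.03 and 0.03 for all genes tested.

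Other rises on the named list were Ctns, the lysosomal cystine exporter, by 0.29 (adjusted p = 0.0472), Erich1 by 0.27 (adjusted p = 0.0337) and Arl2bp, a partner of the small GTPase ARL2, by 0.27 (SE 0.036, adjusted p = 0.00333). Arl2bp had effects of 0.24, 0.28 and 0.27 in the 3 lines and no overlap in any, and its call was kept in all 18 fits without 1 library, against 2 for Ctns and 7 for Erich1. Aurka, the mitotic kinase, rose by 0.18 (SE 0.030, adjusted p = 0.00933), the only one of 27 G2/M genes to pass, and its call ended under median-of-ratios rescaling. Under that rescaling Ccnb1 rose instead, and under quantile normalization both rose. Other falls were Lsp1 and Synpo, both actin-binding proteins, by 0.45 and 0.41 (adjusted p = 0.0337 for each), Cbr2, a carbonyl reductase, by 0.42 (adjusted p = 0.0367), Speg, a muscle kinase, by 0.38 (adjusted p = 0.0337), Primpol, which primes DNA at stalled forks, by 0.39 (adjusted p = 0.0424) and Ttc32 by 0.35 (adjusted p = 0.0321). Their calls were kept in 7, 8, 5, 5, 4 and 11 of 18 fits without 1 library. The splicing factor Tra2a fell by 0.31 (SE 0.044, adjusted p = 0.00333) with no overlap in any line, 1 of 30 RNA-binding and splicing factors to pass. Rfc4, a subunit of the clamp loader of DNA replication, fell by 0.14 (adjusted p = 0.0321), Nfkb2 by 0.20 (adjusted p = 0.0402) and the clock factor Arntl by 0.25 (adjusted p = 0.0337), each alone in its list and kept in 7, 4 and 5 of 18 such fits.

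Median-of-ratios rescaling and quantile normalization both ended the call of Rfc4, and quantile normalization alone ended those of Hist1h2bc, Gmppb, Plau, Crabp2, Cbr2 and Ttc32. Without the pair of libraries that stood apart, Adamts2, Adamts5, Ctns and Erich1 lost theirs, and with a pseudocount of 0.1 Adamts2, Lsp1, Cbr2 and Primpol. Without the filter on low values, with 34434 genes in the adjustment, every named gene whose adjusted p was 0.0209 or higher lost its call.

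**Figure D4:**
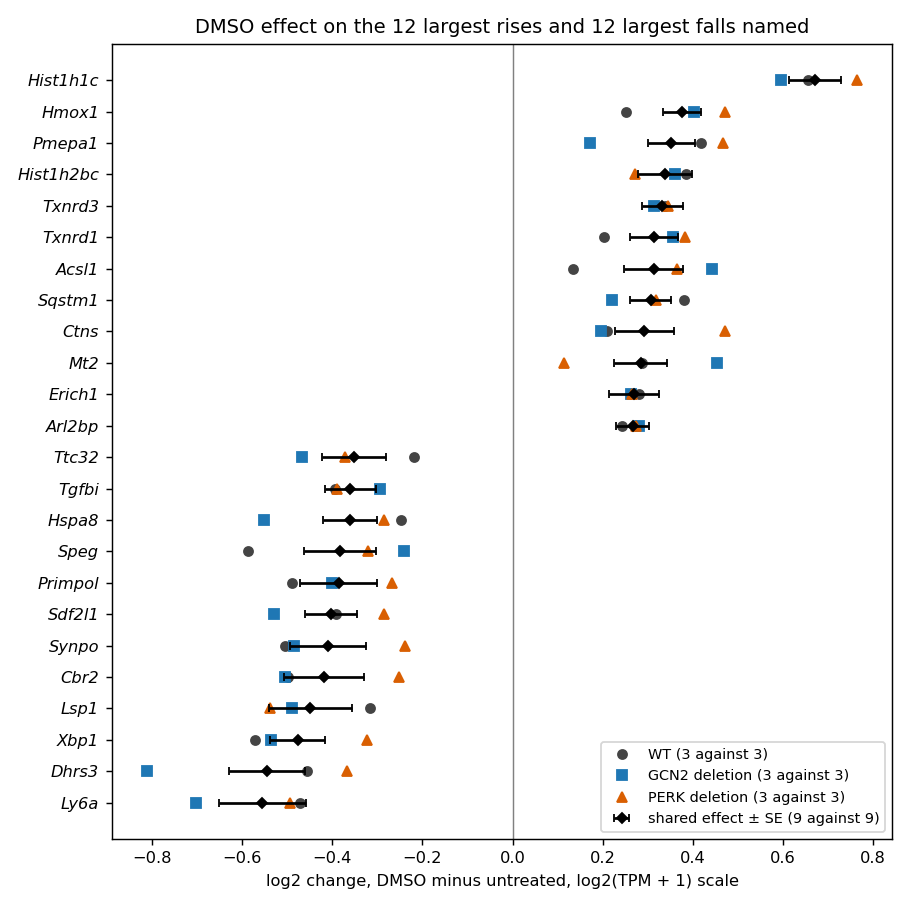
Log2 change, DMSO minus NT, of the 24 genes named by size, 1 per row, with a diamond and bar for the shared effect ± SE (9 against 9 libraries) and a circle, square and triangle for the WT, GCN2-deletion and PERK-deletion lines (3 against 3). The genes were chosen for 1 sign in all 3 lines, and their shared effects run from -0.56 for Ly6a to 0.67 for Hist1h1c.

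Several pathways did not pass in any member. In limma 0 of 27 interferon-stimulated genes, 0 of 31 proteasome subunits, 0 of 24 p53 targets, 0 of 28 hypoxia and glycolysis genes, 0 of 15 osmotic response genes and 0 of 82 ribosomal protein genes rose or fell. At an unadjusted p under 0.05 these lists held 1, 7, 3, 2, 0 and 0 genes up and 2, 0, 0, 3, 2 and 0 down. The proteasome subunits lay above 0 in 30 of 31 cases, with a median of 0.04, and 1, Psmd11, rose under median-of-ratios rescaling and under quantile normalization. In the WT, GCN2-deletion and PERK-deletion lines the proteasome medians were 0.09, 0.02 and 0.02, beside -0.06, 0.03 and 0.03 for all genes tested. Without the WT line 17 of the 31 lay above 0, with a median of 0.03, the same as for all genes in that fit. The interferon genes had a median of -0.09, and 1, Ddx58, fell under either of these scalings. Among the hypoxia and glycolysis genes Pfkp rose and Hk2 fell under median-of-ratios rescaling.

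Within each line, 3 libraries were compared with 3. In WT cells 0 genes rose and 1 fell (0.00654%), the T-cell receptor segment Traj32. In the GCN2-deletion line 1 rose (0.00654%), the microRNA gene Mir323, and 0 fell. At an unadjusted p under 0.05 there were 252 up and 1154 down in WT cells. The GCN2-deletion line had 412 up and 411 down at that p, and the PERK-deletion line 561 up and 420 down. In the PERK-deletion line 6 rose (0.0392%) and 3 fell (0.0196%), 9 in all (0.0588%). Among these were Hist1h1c at 0.76 (adjusted p = 0.0132), Hmox1 at 0.47 (adjusted p = 0.0132) and Pmepa1 at 0.47 (adjusted p = 0.0425). Nrn1, a cell-surface protein of neurons, fell there by 0.37 (SE 0.050, adjusted p = 0.0132). Its effects were -0.03 in WT cells and -0.01 in the GCN2-deletion line, yet the difference between lines did not pass (F-test adjusted p = 0.41). The F-test of unequal effects passed for 4 genes (0.0261%), none of them protein coding and none among the 123, and the smallest adjusted p of a protein-coding gene was 0.372. At an unadjusted p under 0.05 the F-test gave 488 genes. A missed threshold does not show that the lines responded alike.

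Over 8387 protein-coding genes with a mean of at least 10 TPM, the effects in the GCN2-deletion and PERK-deletion lines were related across genes (Pearson r = 0.478, Spearman rho = 0.529). WT effects were hardly related to those of the GCN2-deletion line (r = 0.0644, rho = -0.00388) or the PERK-deletion line (r = 0.127, rho = 0.0943). Each effect uses libraries of its own, and genes are not independent replicates. The WT values turned on the pair of libraries that stood apart: without them the WT effects gave r = 0.561 with the GCN2-deletion line and r = 0.321 with the PERK-deletion line, and the deletion lines gave r = 0.379 with each other. Leaving out WT NT replicate 1 alone gave r = 0.428 and 0.321 for the pairs with WT, and leaving out the DMSO replicate 1 of the GCN2-deletion line alone gave r = 0.471 for WT with that line. The median effect over all genes tested was -0.06 in WT cells and 0.03 in each deletion line, and that of WT cells moved to -0.01 without NT replicate 1.

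**Figure D5:**
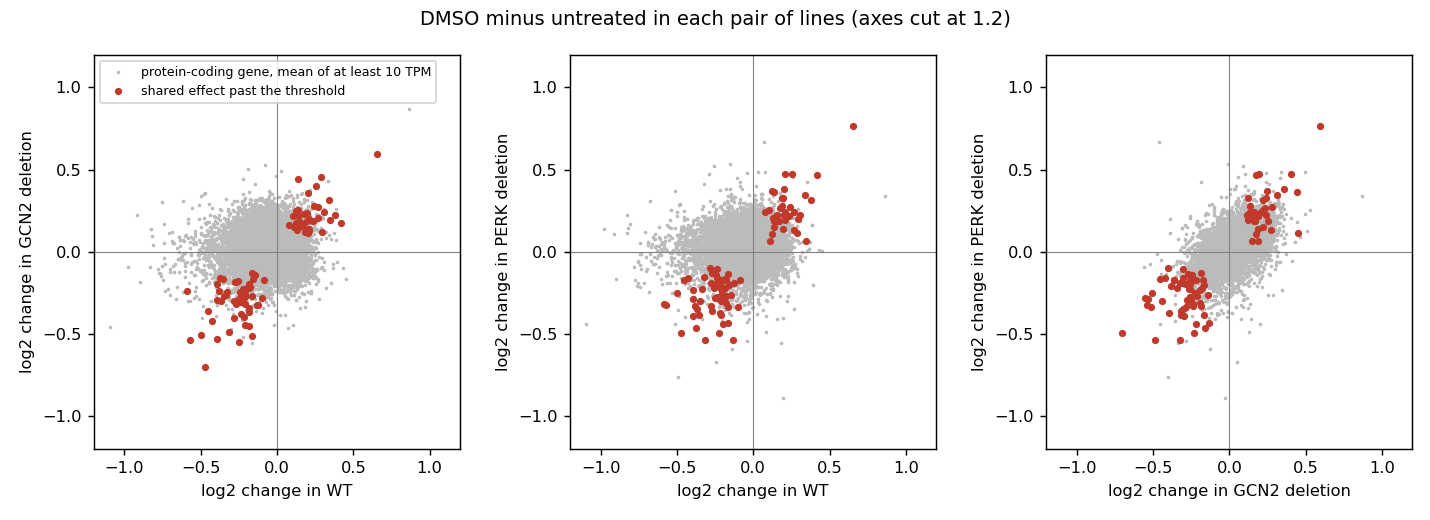
Log2 change, DMSO minus NT, of 8387 protein-coding genes in each pair of lines (1 grey point per gene, axes in log2 units and cut at 1.2, with 4 genes beyond), all 18 libraries included; red points are the 93 of them whose shared effect passed the threshold. The cloud is stretched along the diagonal for the GCN2-deletion and PERK-deletion lines and round for the pairs with WT, and all red points lie in the 2 quadrants of equal sign. A call on the shared effect favours genes of equal sign, so the place of the red points is a description and no support.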

How the data were processed

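RNA was sequenced by the submitters; their processing notes name FastQC, kallisto and mm10, with versions not given in the sources used here. The authors deposited TPM per gene symbol (54735 symbols, 36 libraries, with the same total of 1000000 in all columns), which were used as deposited. TPM keeps no read depth, so the depth is unknown and no counting interval could be given, and the strand setting of the counting is not stated. Replicate numbers did not pair DMSO with untreated libraries (correlations of same-numbered deviations from -0.168 to 0.0796). Genes reaching 1 TPM in 3 or more of the 18 libraries were fitted on log2(TPM + 1) with limma 3.58.1 in R 4.3.3 (variance trend, robust), with line and DMSO as terms for the shared effect (14 residual degrees of freedom) and 6 groups for the effects in each line and the F-test (12), Benjamini-Hochberg adjusted over all genes tested. Fold changes on this scale understate those of low genes. The model code was run on simulated data with independent noise, of the same spread in every library for a given gene. That run does not cover libraries that differ as a whole. Gene classes and loci came from GENCODE M21 (54183 symbols matched, and 32 more through RefSeq), promoter sequences from RefSeq, GRCm38.p6. Named were up to 12 rises and 12 falls of largest change among protein-coding genes past the threshold with a conventional symbol, at least 5 TPM on average in DMSO or untreated libraries and 1 sign in all lines; up to 3 rises and 3 falls per list; protein-coding genes called in 1 line; and a fixed panel of stress genes and eIF2alpha kinases. The comparison, lists, panel and motifs were chosen with earlier results of these data known. Alternatives changed the scaling, filter, pseudocount, variance model, weights, genes and libraries fitted, including each library left out. Plots used matplotlib 3.10.9 (Python 3.11.15).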

Additional observations from a re-analysis of the deposited data

Results flagged for a closer look

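The effect of DMSO differed between the 3 lines for 4 genes in limma's F-test, all of them short or segment transcripts listed at 0 in whole groups. Gm26384, annotated as a microRNA gene, was listed at 0 in the 3 untreated PERK-deletion libraries and at 15.3, 17.3 and 7.74 TPM with DMSO, and at 11.4 to 31.0 TPM in the other 12 libraries (adjusted p = 0.00554). Mir323 was listed at 6.24, 4.14 and 2.23 TPM in the DMSO libraries of the GCN2-deletion line and at 0 in the other 15 (adjusted p = 0.00689). Traj32, a T-cell receptor segment, stood at 3.28, 3.23 and 2.87 TPM with DMSO and 9.17, 9.15 and 6.98 untreated in WT cells and was listed at 0 in both deletion lines (adjusted p = 0.00698). Gm26043, annotated as a microRNA gene, was listed at 8.73, 4.98 and 8.57 TPM with DMSO and 0 untreated in the PERK-deletion line, and at 5.03, 2.63 and 0 TPM in untreated WT cells (adjusted p = 0.0361). An exact 0 can be a failed estimate in TPM without counts. The first 2 calls were kept in all 18 fits that left out 1 library, that of Traj32 in 17 and that of Gm26043 in 3. Under the other alternatives, default array weights left out, the call of Gm26384 was kept in 11 of 12 (adjusted p up to 0.489), that of Mir323 in 10 of 11 (up to 0.215), that of Traj32 in 7 of 12 (up to 0.94) and that of Gm26043 in 6 of 12 (up to 0.681).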

How the results depend on the processing

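None of the 123 shared calls changed sign in any alternative run, but their number moved with most. Genes that rose and fell numbered 142 and 192 with median-of-ratios rescaling, 184 and 137 with quantile normalization, 18 and 22 without the filter (39 of the 123 kept), 296 and 465 with default array weights, 292 and 459 with weights estimated gene by gene, 158 and 198 with all 36 libraries, and 109 and 277 without the 4 libraries of high microRNA share. Without the 2 libraries that stood apart 124 fell. Without the WT line 3 and 3 passed (5 of the 123), without the GCN2-deletion line 1 and 0 (1 of them), and without the PERK-deletion line 6 and 12 (16 of them). Leaving out each library gave 20 to 53 rises and 33 to 127 falls; the total fell by over 1.5 times, to between 53 and 81, without any of 13 libraries, the others being DMSO replicate 1 of the GCN2-deletion line, DMSO replicate 2 and NT replicate 3 of the PERK-deletion line and WT NT replicates 1 and 3. The default weights ran from 0.15 to 28 and their estimation stopped early. Weights gene by gene and the fit without the 2 libraries were added after the data were seen.

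Replicate number as a block gave 44 rises and 88 falls, 113 of the 123 among them; the numbers do not pair the samples, every other count of calls stayed within 1.5 times, and the calls of Primpol and Nqo1 ended.

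Per line, rises and falls were, in WT cells, 1 and 6 with median-of-ratios rescaling, 5 falls without the filter, 0 falls with a filter at 5 TPM, a pseudocount of 0.1 or protein-coding genes only, 1176 and 4226 with default weights, 16 and 82 gene by gene, and 5 and 8 with all 36 libraries. In the GCN2-deletion line they were 2 and 8 rescaled, 2 and 5 quantile normalized, 2 and 1 without the filter, 0 rises at 5 TPM, 2202 and 1860 with default weights, 451 and 496 gene by gene, 9 and 13 with all 36, 2 and 7 for protein-coding genes, 4 and 12 without high-microRNA libraries, and 2 and 3 without the 2 libraries that stood apart. In the PERK-deletion line they were 3 and 14 rescaled, 12 falls quantile normalized, 18 and 8 without the filter, 1 fall at 5 TPM, 565 and 628 with default weights, 64 and 101 gene by gene, 22 and 16 with all 36, 3 rises for protein-coding genes, and 12 and 5 without the 2 libraries. The F-test gave 13 genes without the filter, 1 at 5 TPM, with the pseudocount of 0.1 or with all 36, 0 for protein-coding genes, 4739 with default weights and 18 gene by gene. Leaving out each library, rises and falls ran from 0 to 1 and 1 to 3 (WT), 1 to 3 and 0 to 1 (GCN2 deletion) and 1 to 8 and 0 to 8 (PERK deletion), and the F-test from 3 to 6.

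Signs turned only for genes that never passed: Atf3 to 0.0026 quantile normalized and 0.00062 without the PERK-deletion line; Eif2ak4 to 0.012 quantile normalized, 0.00068 with the pseudocount of 0.1 and 0.076 without the WT line; Chac1 to -0.0081 and -0.0074, Eif2ak1 to -0.013 and Eif2ak3 to -0.0013 and -0.00055 with weights; Eif2ak1 to -0.015 and Ppp1r15a to -0.044 without high-microRNA libraries, Ppp1r15a to -0.027 without the 2 libraries and -0.021 without the PERK-deletion line, and Ddit3 to 0.042 without the WT line. The cause was not tested, save that leaving out a line leaves fewer samples.

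Leaving out each library, the log2 change ran from -0.077 to 0.019 for Atf3, -0.010 to 0.025 for Eif2ak1, -0.064 to 0.036 for Eif2ak4 and -0.0066 to 0.070 for Ppp1r15a. The difference in class shares, DMSO minus NT in percentage points of TPM, ran from -0.29 to 0.14 for microRNA, -0.083 to 0.0088 for other small RNAs, -0.22 to 0.50 for ribosomal proteins and -0.043 to 0.50 for protein-coding transcripts.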
